A study of Mus musculus with 6 samples.

Results

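KPR4 is 1 of 3 mouse lung adenocarcinoma-derived cell lines profiled on expression arrays, and its expression state was set against that of the other 2 lines, KPR5 and KPR8. The 2 KPR4 arrays, read from the sample titles, were compared with the 4 arrays of KPR5 and KPR8, out of 6 arrays in all. Of 20380 named probe sets, standing for 12393 genes, 7906 genes passed a filter of log2 4 or above on at least 2 arrays and were tested. Each line, of strain C57/B6-129SvJae, was measured once after ethanol vehicle and once after 4-OH tamoxifen at 250 nM for 24 h. In all 3 lines the drug restores expression of p53, the tumour suppressor and transcription factor, so the comparison held treatment as a covariate. KPR4 is 1 line, so the tests speak of its 2 arrays, which differ in treatment, and not of a class of tumours. Nothing says that the cultures were separate, so p-values measure the spread between these arrays. The driver alleles, the number of tumours behind the lines and whether a line is 1 clone are not given in the sources used here. Trp53 itself had no named probe set, and its target Cdkn1a, encoding the cell cycle inhibitor p21, read 5.69 and 11.31 in KPR4, 7.73 and 11.23 in KPR5 and 5.97 and 10.75 in KPR8, higher with tamoxifen in each line.

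Epithelial cells of lung, stomach, intestine and liver arise from the foregut and midgut endoderm and are kept apart by different sets of transcription factors. NKX2-1 maintains the identity of lung epithelium, whereas HNF4A, CDX2 and CEBPA act in the epithelium of the gut or in hepatocytes. Gastric and intestinal genes, Hnf4a and galectin-4 among them, are known from mouse lung adenocarcinomas that lack Nkx2-1. Detoxifying enzymes such as aldehyde dehydrogenases and glutathione transferases are abundant in liver and gut, and several are targets of the stress-responsive factor NRF2.

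Levels are log2 GCRMA values, a scale on which 1 unit is a doubling, and each pair of values gives the ethanol array before the tamoxifen array. Differences are KPR4 minus KPR5 and KPR8 in a limma fit, with standard errors (SE) and Benjamini-Hochberg adjusted p-values, and "higher" or "lower" below means an adjusted p under 0.05. A fold is 2 to the power of the difference of means, with values under the array background (2.84, the highest of 27 Bacillus control probe sets) first raised to it. Where this touched an array of the dimmer side, the fold is given as "at least".

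The array medians lay between 4.56 and 4.63. Between 57.2% and 57.6% of the probe sets of an array reached log2 4. The 3′ probe set of 18S ribosomal RNA read 5.01 on the KPR5 ethanol array and 7.82 to 8.58 on the others, and the counts over all genes and over the lists that moved by over 1.5 times when an array was left out are given without it. Of 8 epithelial markers, all 8 were tested. Cdh1, encoding E-cadherin, read 12.20 and 12.40 in KPR4, 11.75 and 11.96 in KPR5 and 11.67 and 12.18 in KPR8, and Krt8, a keratin of simple epithelia, 12.30 and 12.40 in KPR4, 12.09 and 12.27 in KPR5 and 12.12 and 12.14 in KPR8, so that each of the 3 lines carried defining epithelial transcripts. Among the 8, Krt19 was higher in KPR4 and Epcam, Cldn4 and Cldn7 were lower, and the summed linear level was 31468 to 32188 in KPR4 and 24240 to 30509 in the others. All 8 endothelial markers failed the filter, and so did 6 of 9 leukocyte markers. Ptprc, the pan-leukocyte marker CD45, lay at background on all 6 arrays. Cd14, the lipopolysaccharide co-receptor of myeloid cells and of some epithelia, was the leukocyte marker that was higher in KPR4, at 9.02 and 9.23 in KPR4, 7.03 and 7.35 in KPR5 and 6.42 and 6.54 in KPR8, a call lost without either KPR4 array. The summed linear level of the leukocyte markers was accordingly 586 to 684 in KPR4 and 160 to 241 in the others. Fibroblast markers summed to 297 to 338 against 163 to 258, with 4 of 10 tested and 0 called (2 at an unadjusted p under 0.05 in limma). The part of these cell types in the results was not tested. In such bulk samples fewer cells of a type and less RNA per cell cannot be told apart.

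KPR4 differed from both other lines in 678 of 7906 genes (8.58%), with 400 higher (5.06%) and 278 lower (3.52%). Every list count below is to be read beside these shares of 5.06% and 3.52%. The differences were larger upward than downward: 309 higher and 182 lower genes reached a size of log2 1, 107 and 23 one of log2 2, and 49 and 5 one of log2 3. The sign was the same against KPR5 and against KPR8 for all 678 genes, as the selection favours. Both KPR4 arrays lay above all 4 others for 378 of the 400 higher genes, where the share among all tested genes was 16.2%, and below them for 244 of the 278 lower genes, where it was 14.8%. Some higher genes passed the filter only because KPR4 itself reached log2 4. Of 83 such genes 66 were called higher, and 334 higher genes did not depend on it. The counts rest on having both KPR4 arrays. Without the ethanol array of KPR4 57 genes were higher and 6 lower, without its tamoxifen array 69 and 6, without the KPR5 ethanol array 242 and 159, and without the KPR8 ethanol array 228 and 129. Without the KPR4 ethanol array 57 and 6 genes reached log2 1, 57 and 6 log2 2, 30 and 2 log2 3, 57 and 6 did not overlap, 23 higher genes did not pass through KPR4 alone, and 34 did. Without its tamoxifen array these were 69 and 6, 63 and 6, 42 and 2, 68 and 6, 32, and 37. Without the KPR5 ethanol array 237 and 149 reached log2 1, 234 and 151 did not overlap and 189 did not pass through KPR4 alone, and without the KPR8 ethanol array the numbers were 224 and 124, 222 and 122, and 175. The 2 arrays of a line share that line, which this fit ignores. With line as a random block (correlation 0.49) 218 genes were higher and 114 lower, 25 of 101 named genes lost their call, and each list whose count moved by over 1.5 times is given with it. In the fit without that block the difference between KPR5 and KPR8 counts as error. Where each line had its own term and KPR4 was set against the mean of the others, 1245 genes were higher and 1284 lower.

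**Figure D1:**
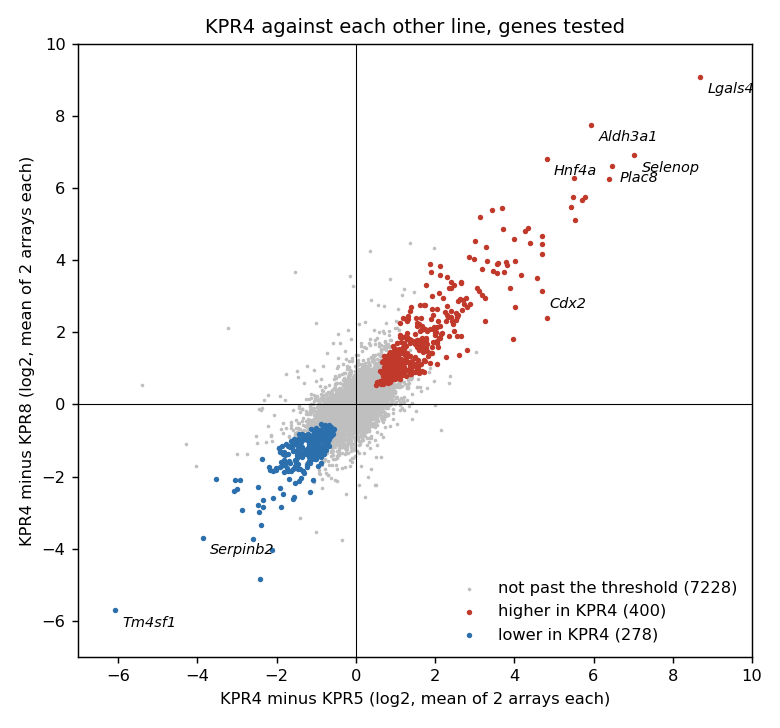
Each point is 1 of 7906 genes, with the mean of the 2 KPR4 arrays minus the mean of the 2 KPR5 arrays (log2) across and the same against KPR8 upward. The 400 higher genes (red) and the 278 lower genes (blue) lie in the upper right and lower left quadrants, from Lgals4 at a fitted 8.90 to Tm4sf1 at -5.89.

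Each line was also set against the 4 arrays of the other 2 by the gap between its 2 arrays and the nearest of those 4. KPR4 stood above them by a gap of log2 1 or more in 156 genes and below them in 57. KPR5 did so in 21 and 11, and KPR8 in 25 and 41. At a gap of log2 3 or more the numbers above were 29 for KPR4, 1 for KPR5 and 2 for KPR8. These counts are a description with no test, and the gap of each line is measured against the other lines of the same 6 arrays.

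Treatment changed 1470 of the 7906 genes (18.6%) between ethanol and tamoxifen when each line had its own term, and these are called p53 response genes here. Outside these genes, 308 of 6436 (4.79%) were higher in KPR4 and 176 (2.73%) lower, together 7.52%. Of the 678 genes that differed, 194 (28.6%) were p53 response genes. Without the KPR4 ethanol array 7 called genes were p53 response genes (11.1%), without its tamoxifen array 10 (13.3%), without the KPR5 ethanol array 111 and without the KPR8 ethanol array 100. With the random line block 169 higher and 72 lower genes lay outside the response. Without the ethanol array of KPR4 these counts were 52 and 4, and without its tamoxifen array 60 and 5. They were 189 and 101 without the KPR5 ethanol array, and 177 and 80 without the KPR8 ethanol array.

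The 20 largest higher genes outside the p53 response, chosen by size among those whose groups did not overlap, included gut epithelial, secreted plasma, detoxifying and channel proteins. Lgals4, encoding galectin-4, a lectin of the intestinal epithelium, read 12.30 and 12.46 in KPR4 against 3.66 and 3.71 in KPR5 and 3.25 and 3.31 in KPR8. Both KPR4 arrays were bright and all 4 others dim, a difference of 8.90 ± 0.22 (adjusted p = 3.8e-06) or 477-fold. Lgals4 passed the filter through KPR4 alone. It came as a marker with the comparison, as did Selenop, Aldh3a1 and Hnf4a. The tests of these 4 genes therefore add no independent support, and the list counts below include them. Selenop encodes selenoprotein P, the plasma carrier of selenium made mainly by the liver. Its level was 11.54 and 11.80 in KPR4, 4.53 and 4.76 in KPR5 and 4.77 and 4.76 in KPR8, 125-fold higher at 6.97 ± 0.19 (adjusted p = 3.8e-06). Aldh3a1, an aldehyde dehydrogenase abundant in cornea and stomach, read 11.50 and 12.12 in KPR4, 5.24 and 6.49 in KPR5 and 4.13 and 3.99 in KPR8. KPR4 was above every other array, and KPR5 lay above KPR8, with a difference of 6.85 ± 0.65 (adjusted p = 0.0015), or 115-fold. Hnf4a, the nuclear receptor that sets hepatocyte and gut epithelial programmes, read 12.39 and 12.51 in KPR4, 7.40 and 7.87 in KPR5 and 5.72 and 5.55 in KPR8. Its groups did not overlap, KPR5 again stood between KPR4 and KPR8, and the difference was 5.82 ± 0.67 (adjusted p = 0.0032), or 56.4-fold. Without the ethanol or the tamoxifen array of KPR4 the call of Hnf4a was lost (adjusted p up to 0.0985), and the other 3 of these genes kept theirs. Further probe sets of Hnf4a gave differences of 2.88 to 6.04.

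**Figure D2:**
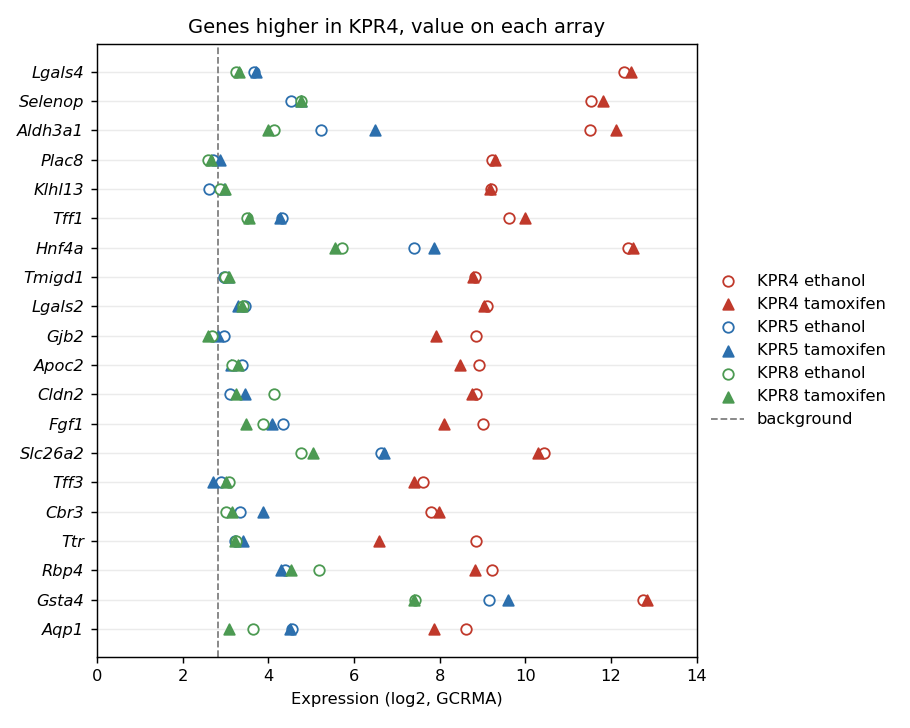
Expression (log2 GCRMA) of the 20 largest higher genes outside the p53 response on each array. Open circles are ethanol and filled triangles tamoxifen, colours give the line, and the dashed line is the background of 2.84. In every row both red points lie to the right of the 4 others.

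Of these 20 genes, 10 (Lgals4, Plac8, Klhl13, Tmigd1, Lgals2, Gjb2, Apoc2, Tff3, Cbr3 and Ttr) passed the filter through KPR4 alone, so their being tested at all rested on the level in KPR4. Plac8, a cysteine-rich protein of placenta and gut epithelium, was at 9.22 and 9.29 in KPR4, 2.71 and 2.87 in KPR5 and 2.60 and 2.67 in KPR8, and Klhl13, an adaptor of a ubiquitin ligase that acts in mitosis, at 9.20 and 9.17 in KPR4, 2.61 and 2.97 in KPR5 and 2.88 and 2.99 in KPR8. Both sat at or near background outside KPR4 and were at least 85.2-fold and at least 77.1-fold higher. Another probe set of Klhl13 gave a smaller difference of 3.05. Gjb2, encoding the gap junction protein connexin 26, read 8.84 and 7.92 in KPR4, 2.97 and 2.83 in KPR5 and 2.68 and 2.58 in KPR8, at least 45.6-fold higher. Tmigd1, an adhesion molecule of intestinal and kidney epithelium, read 8.82 and 8.77 in KPR4, 2.96 and 3.07 in KPR5 and 2.99 and 3.09 in KPR8. The 4 other arrays differed by little and KPR4 was 54.6-fold higher. Fgf1, a fibroblast growth factor, was at 9.01 and 8.11 in KPR4, 4.35 and 4.10 in KPR5 and 3.87 and 3.48 in KPR8, and another of its probe sets gave 2.53 in place of 4.61. Slc26a2, a sulfate transporter that supplies sulfation, read 10.43 and 10.30 in KPR4, 6.63 and 6.69 in KPR5 and 4.75 and 5.04 in KPR8, with KPR5 above KPR8 and KPR4 above both. Aqp1, a water channel, was 19.6-fold higher at 8.62 and 7.87 in KPR4, 4.56 and 4.51 in KPR5 and 3.65 and 3.09 in KPR8. Apoc2, the apolipoprotein that activates lipoprotein lipase, read 8.93 and 8.47 in KPR4, 3.39 and 3.13 in KPR5 and 3.15 and 3.29 in KPR8, or 43.9-fold higher. The KPR4 arrays were far above the others for each of these genes. The adjusted p of the 20 ran from 3.8e-06 (Lgals4, Selenop and Plac8) to 0.0087 (Gsta4). Besides Hnf4a, Slc26a2 and Gsta4 lost their call without either KPR4 array, and Aqp1 without the ethanol array of KPR4.

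Among 13 tested gut and liver lineage transcription factors, 5 were higher and 0 lower, with a median difference of 0.53 against -0.02 over all tested genes. Cebpa passed the filter through KPR4 alone, and 4 of the other 12 were higher, with a median of 0.50. Over all 26 members with a probe set, with values under background raised to it, the median was 0.12. Cdx2, the homeobox factor of intestinal identity, read 10.37 and 9.51 in KPR4, 5.61 and 4.86 in KPR5 and 7.13 and 6.47 in KPR8. KPR4 was highest, KPR8 came next and KPR5 was lowest, a difference of 3.92 ± 0.53 (adjusted p = 0.006). Cdx2 is also a p53 response gene, lower with tamoxifen by 0.76 on average. Cebpa, a factor of hepatocyte and myeloid differentiation, was at 6.52 and 6.02 in KPR4, 3.56 and 3.74 in KPR5 and 3.11 and 3.58 in KPR8, a difference of 2.77 ± 0.25. Foxa2, a pioneer factor of endoderm, differed by 1.80 ± 0.42 (adjusted p = 0.045). Its call was lost without any 1 KPR4 or KPR8 array, with no treatment term and with a filter of log2 6. Klf5, a zinc finger factor of proliferating gut epithelium, differed by 1.17 ± 0.24, a call lost with the random line block. Foxa1, the partner of Foxa2, read 9.62 and 9.11 in KPR4, 9.62 and 9.59 in KPR5 and 9.47 and 9.59 in KPR8, with overlapping groups and an adjusted p of 0.55. Gata6, at 6.17 and 5.96 in KPR4, 5.75 and 5.72 in KPR5 and 4.26 and 4.44 in KPR8, differed by 1.02 ± 0.48 (adjusted p = 0.23). The other 13 members with a probe set failed the filter. They included Hnf4g, between 3.92 and 4.00, and Gata4, at background on all 6 arrays. Without the ethanol or the tamoxifen array of KPR4 1 member was called, and without the KPR8 ethanol array 3 were. The call of Cdx2 was among those lost (adjusted p up to 0.142), and Cebpa kept its own.

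Gastric and intestinal mucosal genes were higher in 11 of 19 tested and lower in 0, with a median of 2.66. Of the 13 that did not pass the filter through KPR4 alone, 5 were higher, with a median of 1.68. Over all 35 members with a probe set, with values under background raised to it, the median was 0.39. The trefoil factors, small secreted peptides that protect mucus-covered surfaces, were among the higher genes: Tff1 read 9.62 and 9.99 in KPR4 against 4.32 and 4.26 in KPR5 and 3.50 and 3.54 in KPR8, and Tff3 7.60 and 7.41 in KPR4 against 2.89 and 2.70 in KPR5 and 3.08 and 3.02 in KPR8. KPR4 exceeded the others by 59.6-fold for Tff1 and at least 23.4-fold for Tff3. Tff2 failed the filter, between 3.25 and 3.88. Cldn2, a pore-forming claudin of leaky epithelia, was 39.7-fold higher at 8.85 and 8.75 in KPR4, 3.11 and 3.45 in KPR5 and 4.14 and 3.26 in KPR8. Cdh17, the liver-intestine cadherin, read 7.96 and 8.09 in KPR4, 4.54 and 5.56 in KPR5 and 4.01 and 3.99 in KPR8, a difference of 3.50 ± 0.42 (adjusted p = 0.0036). Lgals2, encoding galectin-2 of gastrointestinal epithelium, was at 9.12 and 9.04 in KPR4, 3.46 and 3.28 in KPR5 and 3.40 and 3.39 in KPR8 and 51.9-fold higher. Dmbt1, a mucosal scavenger receptor protein, read 5.49 and 4.98 in KPR4, 2.02 and 1.91 in KPR5 and 2.33 and 2.21 in KPR8, at or under background in the other lines and at least 5.27-fold higher. Psca, a surface protein of stomach and bladder epithelium, differed by 2.35 ± 0.20, and Tspan8, a tetraspanin high in all 3 lines, by 1.24 ± 0.21.

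Several mucosal genes differed between KPR5 and KPR8 and did not pass the test. Ctse, encoding gastric cathepsin E, read 8.59 and 9.13 in KPR4, 8.68 and 9.32 in KPR5 and 5.06 and 5.55 in KPR8, with KPR5 overlapping KPR4 and KPR8 low (adjusted p = 0.42). Anxa10, an annexin of gastric epithelium, was at 8.95 and 8.76 in KPR4, 7.38 and 7.62 in KPR5 and 4.42 and 4.32 in KPR8, and Cldn18, a claudin with lung and stomach isoforms, at 9.93 and 10.08 in KPR4, 9.48 and 9.40 in KPR5 and 7.36 and 7.10 in KPR8. In both, KPR4 was highest and KPR8 lowest, with adjusted p of 0.13 and 0.2. Muc1, a membrane mucin, differed by 1.68 ± 0.45 (adjusted p = 0.066). Vil1, the brush border protein villin, was dim throughout, at 4.27 and 4.53 in KPR4, 4.09 and 3.65 in KPR5 and 4.25 and 4.06 in KPR8 (adjusted p = 0.31). Muc5ac, the main gastric gel mucin, failed the filter at 3.35 and 3.48 in KPR4, 2.40 and 2.39 in KPR5 and 2.53 and 2.36 in KPR8.

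Of 31 liver-type plasma proteins with a probe set, 9 were tested and 7 were higher, with 0 lower. The choice of members that passed bears on that count: 5 of the 9 (Itih2, Ttr, Apob, Apoa1 and Cfb) passed through KPR4 alone. Of the other 4, 2 were higher, Rbp4 and the marker Selenop, with a median of 2.38. Over all 31, with values under background raised to it, the median difference was 0.09. Rbp4, the retinol carrier, read 9.23 and 8.83 in KPR4, 4.39 and 4.29 in KPR5 and 5.19 and 4.52 in KPR8, and Itih2, a heavy chain of the inter-alpha-trypsin inhibitor, 8.23 and 7.61 in KPR4, 3.95 and 3.90 in KPR5 and 3.47 and 3.23 in KPR8. The groups were far apart for both, at 21.6-fold and 19.5-fold. Ttr, the thyroxine and retinol-binding protein transthyretin, was 8.86 and 6.58 in KPR4, 3.22 and 3.41 in KPR5 and 3.24 and 3.22 in KPR8, with the KPR4 tamoxifen array lower than its ethanol array. Apob, the structural protein of chylomicrons and low-density lipoproteins, differed by 2.54 ± 0.17, and Apoa1, of high-density lipoproteins, by 1.20 ± 0.17. Cfb, complement factor B, was at background in KPR5 and KPR8 and at least 4.55-fold higher in KPR4, at 5.13 and 4.92 in KPR4, 2.52 and 2.43 in KPR5 and 2.59 and 2.59 in KPR8. Alb, encoding albumin, failed the filter at 3.44 and 3.39 in KPR4, 3.70 and 3.52 in KPR5 and 3.54 and 3.60 in KPR8. Afp, the fetal plasma protein, went the other way without passing the test: it read 5.16 and 4.97 in KPR4, 5.56 and 6.55 in KPR5 and 8.41 and 8.81 in KPR8 (adjusted p = 0.15), with KPR8 highest.

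Defining lung genes were dim in the 3 lines, while other alveolar genes were not. Nkx2-1 was at or under background on all 6 arrays, between 2.40 and 2.83. Sftpc, encoding the surfactant protein of alveolar type II cells, lay between 2.61 and 3.13 and Sftpb between 2.46 and 2.71. Of 6 tested alveolar genes, 1 was higher: Abca3, the lipid transporter of lamellar bodies, at 7.95 and 8.32 in KPR4, 6.94 and 7.57 in KPR5 and 6.89 and 7.0 in KPR8 (difference 1.03 ± 0.22, adjusted p = 0.033). Another probe set of Abca3 gave -0.18, and with the mean of its probe sets the gene was not called. That call was lost without either KPR4 array and without the KPR5 or KPR8 ethanol array, each leaving 0, and with the random line block. Lpcat1, an enzyme of surfactant lipid synthesis, was bright throughout at 11.36 and 10.89 in KPR4, 11.72 and 11.16 in KPR5 and 11.97 and 11.94 in KPR8, as was Cav1, encoding caveolin-1, at 9.72 and 10.67 in KPR4, 10.54 and 10.54 in KPR5 and 10.53 and 10.87 in KPR8 (adjusted p = 0.16 and 0.27). Aqp5, a water channel of type I cells and glands, read 8.12 and 7.53 in KPR4, 9.98 and 10.11 in KPR5 and 7.91 and 7.23 in KPR8, with KPR5 highest (adjusted p = 0.51). The 2 tested airway genes, Trp63 and Sox2, did not pass the test (adjusted p = 0.34 and 0.68, with 0 at an unadjusted p under 0.05 in limma, against 25.6% of all tested genes).

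The promoters of 4 higher genes of the gut, plasma protein and detoxification groups are shown as examples of windows that hold motif letters. Whether any factor acts on these promoters was not tested. The 4 genes, and all motifs other than HNF4 and HNF1, were chosen after the values were seen. They are the 250 bases before the RefSeq start (GRCm38.p6), read 5′ to 3′ on the gene's strand, with matches in capitals. Capitals mark CDX motifs (TTTATGG or TTTATTG), the C/EBP motif TTGCNNAA and the antioxidant response element TGACNNNGC, on either strand. Fabp1, the liver fatty acid binding protein, is at chr6:71199629-71199878 (+), Mgst1, a microsomal glutathione transferase, at chr6:138140277-138140526 (+), Lgals2 at chr15:78855530-78855779 (-) and Apoc2 at chr7:19677942-19678191 (-).
Fabp1: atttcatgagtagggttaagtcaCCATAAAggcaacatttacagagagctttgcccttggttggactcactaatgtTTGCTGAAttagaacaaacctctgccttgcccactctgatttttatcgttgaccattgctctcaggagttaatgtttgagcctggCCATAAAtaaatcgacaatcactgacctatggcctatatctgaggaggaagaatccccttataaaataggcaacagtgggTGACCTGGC
Mgst1: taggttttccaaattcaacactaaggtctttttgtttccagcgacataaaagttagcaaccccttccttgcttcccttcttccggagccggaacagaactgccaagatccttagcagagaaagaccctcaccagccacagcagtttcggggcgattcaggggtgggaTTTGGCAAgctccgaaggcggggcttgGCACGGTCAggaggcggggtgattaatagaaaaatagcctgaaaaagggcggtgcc
Lgals2: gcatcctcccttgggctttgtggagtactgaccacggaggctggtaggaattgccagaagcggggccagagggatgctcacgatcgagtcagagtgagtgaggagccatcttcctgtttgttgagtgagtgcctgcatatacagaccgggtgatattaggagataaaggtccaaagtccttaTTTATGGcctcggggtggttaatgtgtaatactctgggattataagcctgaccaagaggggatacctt
Apoc2: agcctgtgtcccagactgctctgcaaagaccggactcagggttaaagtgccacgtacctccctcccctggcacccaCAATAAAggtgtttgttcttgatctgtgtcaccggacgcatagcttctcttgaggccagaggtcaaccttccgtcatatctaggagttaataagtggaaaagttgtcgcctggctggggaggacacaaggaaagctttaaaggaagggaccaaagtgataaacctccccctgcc
The CDX matches lie at -227 to -221 and -89 to -83 in Fabp1, at -68 to -62 in Lgals2 and at -174 to -168 in Apoc2, counted back from the start. Fabp1, Lgals2 and Apoc2 passed the filter through KPR4 alone. The call of Fabp1 was lost without the KPR4, KPR5 or KPR8 ethanol array and with the random line block.

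Of 107 genes higher by log2 2 or more, 80 had a promoter in the table. CDX letters occurred in 8 of the 80 (10.0%) and in 4.83% of the promoters of 6464 tested genes. The FOXA letters TGTTTAC occurred in 7 (8.75%, against 2.69%) and the C/EBP letters in 18 (22.5%, against 9.11%). The antioxidant element occurred in 6 (7.5%, against 13.8%), and the median GC content was 53.5% against 60.0%. The HNF4 letters CAAAGTCCA or CAAAGTTCA occurred in 0 of the 80 and in 0.851% of all, and an HNF1 motif in 0 and in 0.0928%. All searches covered both strands, and no motif contains another. The base composition of the promoters moves with these shares, and its part in them was not tested.

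Enzymes that clear aldehydes and foreign compounds were higher in 21 of 31 tested, with 1 lower and a median difference of 1.86. Outside the p53 response 17 were higher and 1 lower. Of the 28 that did not pass through KPR4 alone, 18 were higher, with a median of 1.84. Gsta4, the glutathione transferase that conjugates 4-hydroxynonenal, read 12.74 and 12.85 in KPR4, 9.15 and 9.59 in KPR5 and 7.42 and 7.40 in KPR8. It was abundant in KPR5 too, and KPR4 lay above every other array, at 4.41 ± 0.65 (adjusted p = 0.0087). Aldh1a7, an aldehyde dehydrogenase, was at 7.60 and 7.67 in KPR4, 4.09 and 4.59 in KPR5 and 3.45 and 3.08 in KPR8, and Cbr3, a carbonyl reductase, at 7.79 and 7.98 in KPR4, 3.33 and 3.88 in KPR5 and 3.02 and 3.14 in KPR8. KPR4 was 14.2-fold and 23.3-fold higher, respectively. Further members with a difference of log2 3 or more were Gstm1 (3.77), Ugt2b34 (3.55), Mgst2 (3.36), Ephx1 (3.14) and Nqo1 (3.03), and Cbr1 reached 2.98, Cyp2s1 2.87 and Mgst1 2.80. Ahr, the aryl hydrocarbon receptor, differed by -0.22 ± 0.26 (adjusted p = 0.65), Cyp1b1, a target of it, was higher by 2.23, and Tiparp, a repressor of it, was lower (-1.04). Gstm1, Gstm2 and Gstm5 lie on chromosome 3, where the median difference of all tested genes was 0.38, and the part of this in their levels was not tested. Without the ethanol array of KPR4 4 members were higher, without its tamoxifen array 6, and the call of Tiparp was lost in both, without the KPR5 or KPR8 ethanol array and with the random line block.

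NRF2 targets and glutathione genes had 9 of 17 tested higher and 0 lower, with a median of 0.62. Nqo1, a quinone reductase and classic NRF2 target, read 8.20 and 8.67 in KPR4, 5.72 and 5.83 in KPR5 and 5.23 and 4.86 in KPR8. The groups were well apart, with a difference of 3.03 ± 0.32 (adjusted p = 0.0025). Gclc, the catalytic subunit of the rate-limiting enzyme of glutathione synthesis, was at 9.33 and 10.80 in KPR4, 6.70 and 8.63 in KPR5 and 6.48 and 7.18 in KPR8, and both KPR4 arrays exceeded every other array even though each line gained with tamoxifen. Gclm, its modifier subunit, differed by 1.85 ± 0.39 and Slc7a11, the cystine importer, by 2.24 ± 0.40. Nfe2l2, encoding NRF2 itself, differed by 1.07 ± 0.16 and Hmox1, a heme oxygenase, by 1.49 ± 0.33, both p53 response genes. Keap1, the repressor of NRF2, differed by 0.33 ± 0.22 (adjusted p = 0.4). Outside the p53 response 5 were higher. Without the ethanol or the tamoxifen array of KPR4 0 members were called, and without the KPR8 ethanol array 3 were.

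Few selenoproteins other than Selenop differed: of 17 tested, Selenop and Selenom (0.92 ± 0.22, adjusted p = 0.048) were higher and the median was 0.22. Selenom passed the filter through KPR4 alone, and 1 of the other 16 was higher. Its call was lost without any 1 array other than the KPR5 tamoxifen array and with the random line block, each leaving 1 higher member. Gpx1 and Txnrd1, the cytosolic glutathione peroxidase and thioredoxin reductase, differed by 0.22 ± 0.26 and 0.18 ± 0.20 (adjusted p = 0.65 and 0.62).

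In lipid handling 4 of 15 tested genes were higher and 1 lower, where the shares over all genes were 5.06% and 3.52%. Pparg, the nuclear receptor of fat cell and colon epithelial differentiation, read 8.42 and 8.45 in KPR4, 6.56 and 6.13 in KPR5 and 5.88 and 4.79 in KPR8, a difference of 2.60 ± 0.41 (adjusted p = 0.012). The acyl-CoA dehydrogenases of fatty acid oxidation Acadvl and Acadm differed by 1.41 ± 0.23 and 1.13 ± 0.20, and Cpt1a, the carnitine transferase of mitochondrial import, by 0.83 ± 0.18. Cpt1a is a p53 response gene, and 3 higher members lie outside that response. Fabp5, a fatty acid binding protein of epidermis, was lower (-0.70). All 20 genes of cholesterol and fatty acid synthesis were tested, and 0 were called (3 at an unadjusted p under 0.05 in limma, against 25.6% of all tested genes). Without either KPR4 array 0 of the lipid handling genes were called, and without the KPR5 ethanol array 2 were higher. The call of Fabp5 was lost in each of these and without the KPR8 ethanol array. With the random line block 2 were higher and 0 lower.

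Tm4sf1 had the largest downward difference. It encodes a tetraspan surface protein of endothelial and carcinoma cells and read 4.67 and 4.40 in KPR4 against 10.60 and 10.60 in KPR5 and 10.31 and 10.19 in KPR8. KPR4 was 59.3-fold lower, a difference of -5.89 ± 0.21 (adjusted p = 1.1e-05). Serpinb2, the plasminogen activator inhibitor PAI-2, read 1.90 and 1.33 in KPR4, 5.10 and 5.84 in KPR5 and 4.95 and 5.69 in KPR8. Both KPR4 arrays were under background, and the level was at least 5.88-fold lower. Dusp9, a phosphatase of MAP kinases, was at 4.68 and 4.23 in KPR4, 7.10 and 6.73 in KPR5 and 7.49 and 6.99 in KPR8, and Bmp7, a bone morphogenetic protein, at 2.83 and 3.02 in KPR4, 5.42 and 5.29 in KPR5 and 6.10 and 5.71 in KPR8. The groups were apart for both, at 6.16-fold and at least 6.52-fold lower. Il24, a cytokine of the interleukin-10 family, read 5.71 and 5.53 in KPR4, 8.44 and 7.61 in KPR5 and 8.80 and 9.14 in KPR8, and Ppbp, a platelet chemokine precursor, 4.47 and 4.50 in KPR4, 7.19 and 6.98 in KPR5 and 8.23 and 8.20 in KPR8. KPR8 was highest and KPR4 lowest for both. Glrp1 was also far higher in KPR8 than in KPR5, at 3.74 and 3.64 in KPR4, 6.0 and 6.20 in KPR5 and 8.33 and 8.73 in KPR8, and an adjusted p of 0.036 that was lost without either KPR4 array or the KPR8 ethanol array (up to 0.366).

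**Figure D3:**
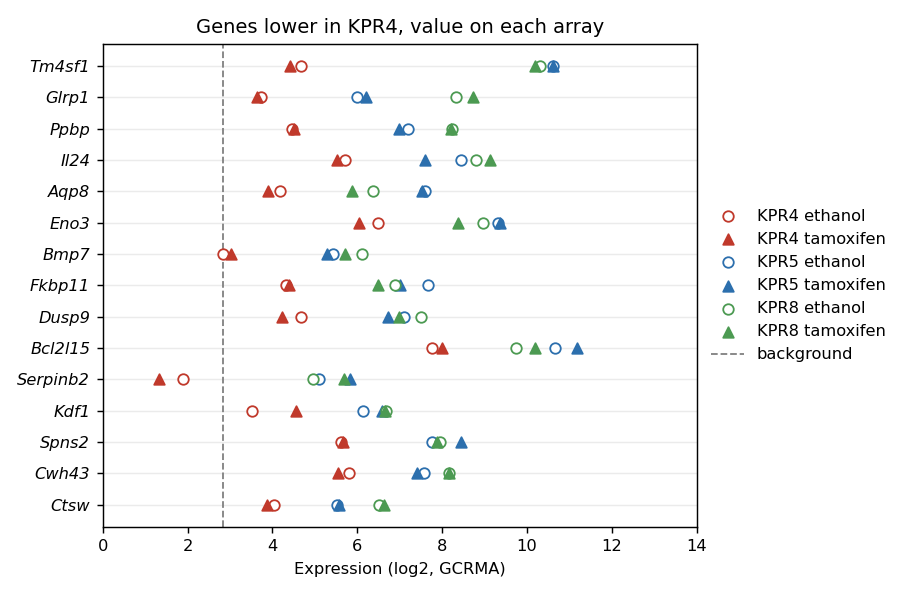
Expression (log2 GCRMA) of the 15 largest lower genes outside the p53 response on each array, with open circles for ethanol, filled triangles for tamoxifen and the dashed line at the background of 2.84. Both KPR4 points (red) lie to the left of the 4 others in every row.

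The remaining genes of the 15 were Aqp8 (-2.80), Eno3 (-2.74), Fkbp11 (-2.67), Bcl2l15 (-2.57), Kdf1 (-2.48), Spns2 (-2.37), Cwh43 (-2.16) and Ctsw (-2.10), all as log2 differences. Aqp8 is a water channel of gut and liver and Eno3 the muscle enolase. Kdf1 is a factor of epidermal differentiation and Spns2 a sphingosine-1-phosphate exporter. Another probe set of Kdf1 gave a smaller difference of -0.58. The adjusted p of the 15 ran from 1.1e-05 (Tm4sf1) to 0.036 (Glrp1), and the rule that chose them asked for groups without overlap. Tm4sf1, Serpinb2 and Dusp9 kept their call with any 1 array left out. All others of the 15 lost theirs without the ethanol array of KPR4, and most also without its tamoxifen array.

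Epithelial adhesion genes were lower more than higher, with 9 of 28 tested lower, 2 higher and a median of -0.36. The lower members were the claudins Cldn3, Cldn4 and Cldn7 and occludin (Ocln) of tight junctions, the adhesion molecule Epcam, the sorting adaptor Ap1m2, the protease St14, the transcription factor Grhl2 and the splicing factor Esrp1. Cldn7 read 8.32 and 8.04 in KPR4, 9.85 and 9.56 in KPR5 and 9.97 and 9.88 in KPR8, and Epcam 9.35 and 8.89 in KPR4, 10.75 and 10.44 in KPR5 and 10.40 and 10.05 in KPR8. KPR4 lay below all 4 other arrays for both, at -1.63 ± 0.18 (adjusted p = 0.0026) and -1.30 ± 0.19 (adjusted p = 0.0089). Cldn3 was at 5.82 and 6.08 in KPR4, 7.49 and 7.69 in KPR5 and 7.92 and 7.65 in KPR8, and Ap1m2 at 3.72 and 4.40 in KPR4, 5.83 and 6.30 in KPR5 and 5.71 and 6.05 in KPR8. Krt19, a keratin of simple and ductal epithelia, went the other way at 12.54 and 12.54 in KPR4, 11.49 and 11.69 in KPR5 and 11.09 and 11.05 in KPR8, as did the junction scaffold Tjp3 (1.73). Tjp3 passed the filter through KPR4 alone, and 1 of the other 27 members was higher. Cdh1, Krt8 and Krt18 differed by 0.41, 0.20 and 0.08 (adjusted p = 0.097, 0.32 and 0.79). Outside the p53 response 5 were lower. Without the ethanol or the tamoxifen array of KPR4 0 were called in either direction.

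Mesenchymal genes moved both ways. Of 18 tested, Zeb1 and Col6a1 were higher and Tnc, Cdh2 and Snai2 lower. Zeb1, a repressor of epithelial genes, read 9.46 and 9.39 in KPR4, 7.12 and 7.01 in KPR5 and 7.70 and 7.35 in KPR8, 4.37-fold higher at 2.13 ± 0.23 (adjusted p = 0.0026). Col6a1, a collagen VI chain, differed by 1.87 ± 0.22. Tnc, encoding tenascin C, was at 5.41 and 6.65 in KPR4, 7.83 and 8.95 in KPR5 and 7.03 and 8.05 in KPR8, below all 4 others, and Cdh2, encoding N-cadherin, differed by -1.07 ± 0.25. Tnc is a p53 response gene, and the other 2 lower members are not. Vim, encoding vimentin, was abundant on all 6 arrays, at 13.52 and 13.65 in KPR4, 13.39 and 13.46 in KPR5 and 13.42 and 13.31 in KPR8, and differed by 0.19 ± 0.10 (adjusted p = 0.29). The median of the list was -0.28. Without either KPR4 array 0 of its members were called, and without the KPR5 ethanol, KPR8 ethanol or KPR8 tamoxifen array, or with the random line block, 1 was lower.

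Laminin-332, the anchoring laminin of epithelial basement membranes, was lower in 2 of its chains. Lama3 read 5.71 and 6.80 in KPR4, 7.73 and 8.98 in KPR5 and 7.89 and 8.34 in KPR8 and Lamb3 5.61 and 6.17 in KPR4, 7.29 and 8.37 in KPR5 and 7.04 and 7.15 in KPR8, differences of -1.98 ± 0.24 and -1.57 ± 0.33. Both genes gained with tamoxifen in each line and are p53 response genes. Itga3, the integrin chain that binds this laminin, differed by -0.86 ± 0.19. These were 3 of 20 tested basement membrane and integrin genes, with 0 higher. Matrix proteases and inhibitors had 4 of 15 lower and 0 higher, where the share of lower genes over all was 3.52%. Besides Serpinb2 these were the stromelysin Mmp10 (-1.57), the serpin Serpinb5 (-1.56) and the lysosomal protease Ctsl (-0.71). Mmp10 and Serpinb5 are p53 response genes, and 2 of the 4 lie outside that response. Without either KPR4 array 0 of the basement membrane genes were lower and 1 of the proteases, and without the KPR5 or the KPR8 ethanol array, or with the random line block, 1 and 2.

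**Figure D4:**
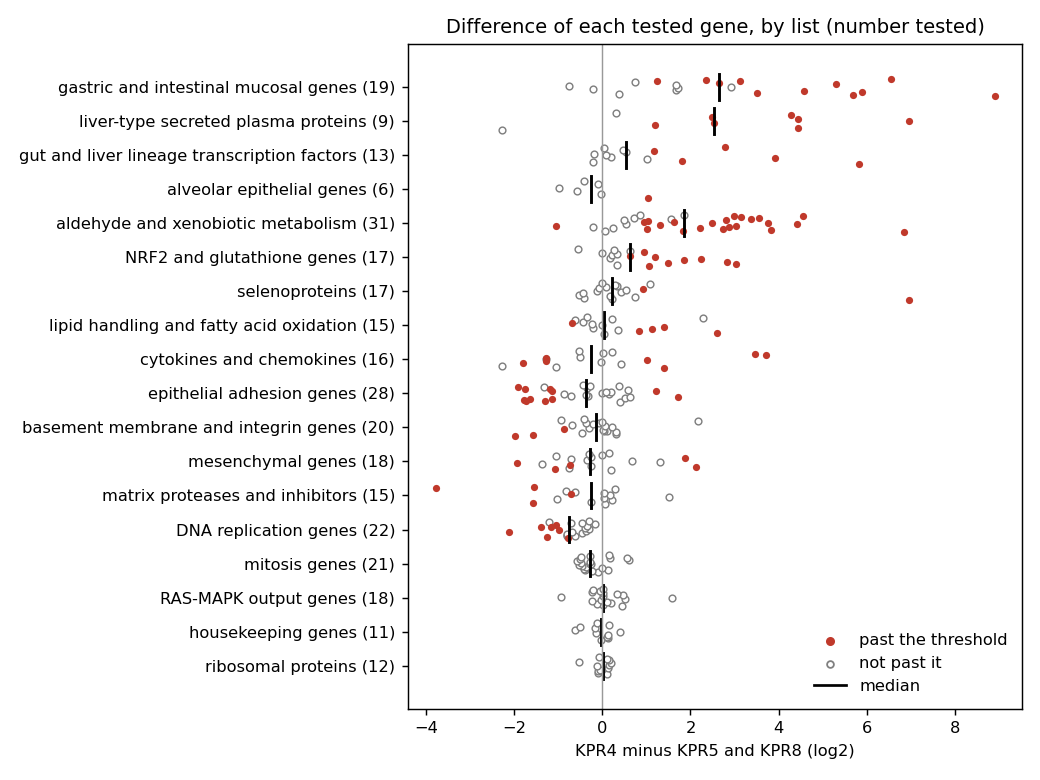
Each point is 1 tested gene, placed by its difference between KPR4 and the other lines (log2), in 18 of the gene lists, with the number tested in brackets. Filled red points passed the threshold, open points did not, and bars are medians, which run from 2.66 for gastric and intestinal mucosal genes to -0.75 for DNA replication genes.

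Cytokine genes were split, with 4 of 16 tested higher and 3 lower, where the shares over all genes were 5.06% and 3.52%. Il1rn, the interleukin-1 receptor antagonist, read 9.23 and 9.62 in KPR4 against 5.62 and 5.75 in KPR5 and 5.72 and 5.79 in KPR8. The 4 other arrays lay within a narrow range and KPR4 was 13.1-fold higher, at 3.71 ± 0.19 (adjusted p = 7.2e-05). Il33, an alarmin of barrier epithelia, was at 6.51 and 7.55 in KPR4, 4.0 and 4.36 in KPR5 and 3.19 and 2.68 in KPR8 and at least 10.8-fold higher. Ccl9 and Cx3cl1, both chemokines, differed by 1.40 ± 0.27 and 1.01 ± 0.19. Cx3cl1 passed the filter through KPR4 alone, and 3 of the other 15 members were higher. Cxcl12, the ligand of CXCR4, was lower at 2.87 and 2.74 in KPR4, 3.98 and 3.94 in KPR5 and 5.21 and 5.25 in KPR8, with an adjusted p of 0.049 that was lost under 12 of 20 alternative settings. Csf2 (-1.28) and Cxcl16 (-1.27) were the other lower members. Of the 3 lower members 2 lie outside the p53 response. Cxcl5 read 4.95 and 4.26 in KPR4, 6.02 and 6.0 in KPR5 and 7.14 and 8.36 in KPR8 and did not pass the test (adjusted p = 0.081). Without either KPR4 array 1 member was higher and 0 lower, without the KPR5 ethanol array 2 were higher, without the KPR5 tamoxifen array 5 were lower, and without the KPR8 ethanol array 1 was lower. With the random line block 2 were higher and 2 lower. In the interferon and antigen presentation list Cd274, encoding PD-L1, was the 1 called of 15, at 5.18 and 4.91 in KPR4, 4.26 and 4.07 in KPR5 and 4.01 and 4.26 in KPR8 (adjusted p = 0.029). Its call was lost without either KPR4 array, without the KPR5 or KPR8 ethanol array and with the random line block.

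Notch pathway genes had 3 of 8 tested higher and 0 lower, where the share of higher genes over all was 5.06%, with a median of 0.66. The ligand Jag1 read 7.90 and 7.97 in KPR4, 6.49 and 6.70 in KPR5 and 6.83 and 6.65 in KPR8, a difference of 1.27 ± 0.20 (adjusted p = 0.011), the ligand Dll1 differed by 0.84 ± 0.19 and the receptor Notch2 by 0.70 ± 0.15. Another probe set of Jag1 gave 0.61. The target Hes1 differed by 0.62 ± 0.19 (adjusted p = 0.097). Without either KPR4 array 0 were called, and without the KPR5 or the KPR8 ethanol array, or with the random line block, 1 was. Among 14 targets of TGF-beta and YAP signalling, Ltbp2 (-2.37), the receptor kinase Axl (-0.92) and the vasoconstrictor Edn1 (-0.79) were lower and 0 were higher. Ltbp2 is a p53 response gene, and the other 2 are not. The count of lower members fell to 0 without either KPR4 array, and to 1 without the KPR5 ethanol array or either KPR8 array, or with the random line block. Axl was also the 1 called among 14 growth factor receptors, a call lost without any 1 array other than the KPR5 tamoxifen array and with the random line block. Of 19 hypoxia and glycolysis genes, with a median of 0.04, 2 were higher, where the share over all genes was 5.06%: Egln3, an oxygen-sensing prolyl hydroxylase, at 8.28 and 7.62 in KPR4, 3.92 and 4.35 in KPR5 and 4.20 and 3.93 in KPR8 (14.4-fold), and Aldoc, a brain-type aldolase, by 1.53. Other probe sets gave 2.51 for Egln3 and 0.08 for Aldoc. The call of Aldoc was lost without any 1 array other than the KPR5 tamoxifen array and with the random line block, each leaving 1 member.

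Several lists gave 0 calls in limma: RAS-MAPK output genes (18 tested, median 0.01), IGF axis genes (7), Wnt targets (5), HOX genes (10), imprinted genes (13), ribosomal proteins (12, median 0.02) and housekeeping genes (11, median -0.03). At an unadjusted p under 0.05 these held 5, 2, 2, 1, 3, 1 and 1 genes in the same order, where 2024 of all 7906 tested genes (25.6%) did. Single left-out arrays gave 1 call in the RAS-MAPK, IGF, imprinted and housekeeping lists. Fosl1, an AP-1 subunit downstream of RAS, differed by -0.95 ± 0.31 and Dusp6, a phosphatase induced by ERK, by 0.45 ± 0.18 (adjusted p = 0.11 and 0.18). The 3 tested sex-linked genes gave 0 calls (0 at an unadjusted p under 0.05 in limma), and Eif2s3y of the Y chromosome was expressed in all 3 lines, at 10.27 and 10.56 in KPR4, 8.90 and 9.08 in KPR5 and 9.72 and 10.50 in KPR8.

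DNA replication genes were lower in KPR4 for 7 of 22 tested and higher for 0, with a median of -0.75. Cdc6, which loads the replicative helicase, read 6.41 and 4.51 in KPR4, 8.15 and 6.61 in KPR5 and 8.49 and 7.08 in KPR8. Each line fell with tamoxifen, and KPR4 lay below the other lines under each treatment, a difference of -2.12 ± 0.24 (adjusted p = 0.0028). The G1/S cyclins Ccne1 and Ccne2 differed by -1.40 ± 0.28 and -1.17 ± 0.23, and the helicase subunit Mcm3 by -1.26 ± 0.23, the latter with overlapping groups. The p53 response holds 16 of the 22, and 0 of the 7 lower genes lie outside it. In the KPR4 ethanol array, before p53 was restored, the median difference was -0.72, and in the tamoxifen array -0.68. Without either KPR4 array 0 were called, and without the KPR8 ethanol array 3 were. With the random line block 1 was lower, and the calls of Ccne1, Ccne2 and Mcm3 were among those lost. All 21 mitosis genes were tested and 0 were called (5 at an unadjusted p under 0.05 in limma, against 25.6% of all tested genes), with a median of -0.28. The pocket proteins Rb1 and Rbl2, which restrain E2F, differed by 1.01 ± 0.22 and 1.08 ± 0.19. Rb1 is a p53 response gene whose groups overlapped. It read 5.88 and 7.92 in KPR4, 4.92 and 6.56 in KPR5 and 4.97 and 7.09 in KPR8. The calls of Rb1 and Rbl2 were both lost without either KPR4 array, without the KPR5 or KPR8 ethanol array and with the random line block.

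Of 28 tested p53 targets 4 were higher in KPR4 and 0 lower, with a median of 0.45. The shares over all tested genes were 5.06% higher and 3.52% lower. The p53 response holds 24 of the 28, and 13.2% of all p53 response genes were called in either direction. Outside the response 1 of the 4 was higher. Ephx1, the microsomal epoxide hydrolase, read 7.66 and 10.21 in KPR4, 3.43 and 8.33 in KPR5 and 3.36 and 8.04 in KPR8. The ethanol array of KPR4 was well above those of the other lines, and the gap was narrower with tamoxifen, at 4.26 and 2.02. Btg2, an antiproliferative protein, was at 5.81 and 8.0 in KPR4, 3.46 and 7.04 in KPR5 and 3.32 and 6.35 in KPR8, Psrc1 differed by 1.51 ± 0.32 and Sesn1, a sestrin that restrains mTORC1, by 1.19 ± 0.23. Cdkn1a, encoding p21, differed by -0.42 ± 0.52 and Mdm2, the ligase that degrades p53, by 0.26 ± 0.16 (adjusted p = 0.67 and 0.35). Without the ethanol array of KPR4 0 members were higher, without its tamoxifen array 1.

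The difference between KPR4 and the other lines was also compared between treatments. In the limma fit that leaves the difference of KPR5 and KPR8 in the error, 0 of 7906 genes were called for a different response in KPR4 (lowest adjusted p = 1.0), with 24 at an unadjusted p under 0.05 (0.304%). With a term for each line, a fit chosen after seeing the data that leaves 1 residual degree of freedom, 11 genes (0.139%) were called and 233 (2.95%) had an unadjusted p under 0.05. KPR4 has 1 array per treatment, so the spread in that fit comes from KPR5, KPR8 and the prior, and its calls are no test of KPR4. The 11 were Ces2g, Ephx1, Fabp1, Fas, Rai2, Sema4g, Sprr2h, Sulf2, Trp53inp1, Ttr and Usp18. Fabp1 read 7.38 and 4.54 in KPR4, 3.34 and 3.22 in KPR5 and 3.28 and 3.39 in KPR8. It was highest in KPR4 with ethanol and lower there with tamoxifen. Ces2g, a carboxylesterase, read 4.06 and 7.20 in KPR4, 2.85 and 3.88 in KPR5 and 2.93 and 3.22 in KPR8, and Sprr2h, a small proline-rich protein of squamous epithelia, 5.94 and 8.11 in KPR4, 2.77 and 2.94 in KPR5 and 3.16 and 3.69 in KPR8. The largest step between treatments was in KPR4 for both. Fabp1, Ces2g and Sprr2h passed the filter through KPR4 alone.

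Chromosomes were not alike. The median difference of the tested genes was 0.38 on chromosome 3, where 80.8% of 412 genes were above 0. It was -0.37 on chromosome 16 (251 genes, 17.1% above 0) and -0.36 on chromosome 5 (530 genes, 17.0% above 0). Chromosomes 4, 15, 1 and 12 had medians of -0.23, -0.22, -0.21 and -0.20, and the others lay between -0.03 and 0.13. On chromosome 3 the median was 0.31 against KPR5 and 0.44 against KPR8, 0.38 with ethanol and 0.36 with tamoxifen, and 0.31 among genes that were not called. On chromosome 16 these medians were -0.49, -0.26, -0.38, -0.37 and -0.34. The shifts were thus present against each line, under each treatment and in genes below the threshold. Medians of KPR5 minus KPR8 also differed between chromosomes, from -0.32 on the X chromosome to 0.29 on chromosome 19. Genes are not independent replicates, and these values are a description with no test. Of the 412 genes of chromosome 3, 66 were called higher and 6 lower, where the shares over all tested genes were 5.06% and 3.52%. None of the 20 largest higher genes lies on chromosome 3, and 2 of the 15 largest lower genes, Tm4sf1 and Bcl2l15, do. Higher genes named above that lie there include Slc7a11, Gclm, Acadm, Notch2 and Psrc1. The part of the chromosome in their levels was not tested.

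**Figure D5:**
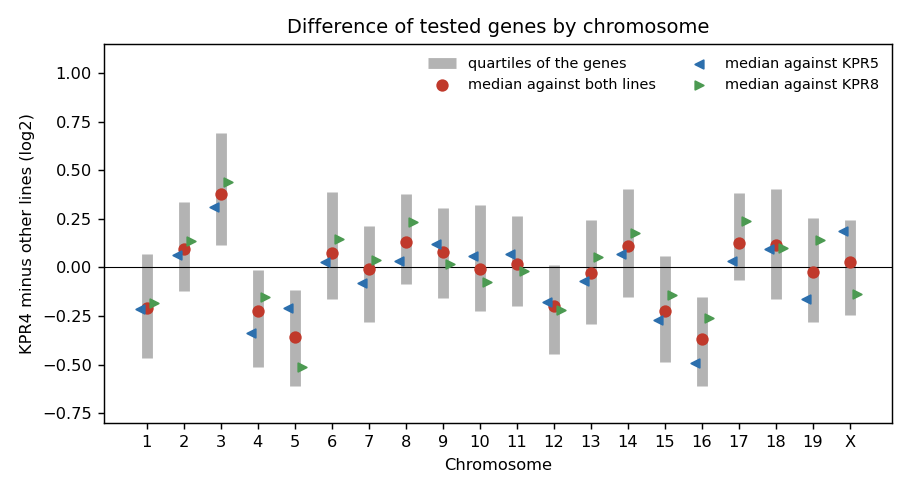
Median difference between KPR4 and both other lines (red), KPR5 alone (blue) and KPR8 alone (green), log2, for the tested genes of each chromosome, with grey bars from the lower to the upper quartile. Chromosome 3 lies highest at 0.38, and chromosomes 5 and 16 lowest at -0.36 and -0.37.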

How the data were processed

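RNA of each line and treatment was hybridised to 1 expression array. The authors deposited 1 log2 expression value for every probe set and array. The submitters' processing notes name GCRMA 2.20.0 and R 2.11.0. GCRMA corrects background by probe sequence and equalizes array distributions, which can compress dim genes. Of 22690 probe sets, 20380 had 1 gene symbol, 691 several, 1555 none and 64 were controls. The brightest probe set stood for each of 12393 genes, and 7906 genes that reached log2 4 on 2 or more arrays were kept. limma 3.58.1 in R 4.3.3 fitted KPR4 against the other lines with treatment as a covariate (3 residual degrees of freedom, variance trend), with Benjamini-Hochberg adjustment over all genes and a threshold of 0.05, two-sided. The number of arrays limits the precision. Tested on simulated data of 7906 genes for this comparison, the fit recovered 4, 26, 50 and 49 of 50 genes changed by log2 0.5, 1, 2 and 3, with 4 false calls. The simulated arrays were independent, whereas the 2 arrays of a line had a correlation of 0.49. The simulation therefore cannot give the rate of false calls or of recovery for arrays that share a line. The members and gene lists were chosen with earlier results of these data known. Named genes were the 20 largest higher and 15 largest lower genes outside the p53 response without overlap, the 4 markers of KPR4, and called or defining members of the lists; others were named after their values were seen. Promoters are RefSeq windows (GRCm38.p6). Alternatives covered the filter, probe set choice, scaling, model terms and each array left out.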

Additional observations from a re-analysis of the deposited data

Results flagged for a closer look

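In 6 of 129 genes examined, 1 of the 4 KPR5 and KPR8 arrays lay far from the other 3. Chance alone would give about 1 in 20 for 4 like arrays. These 4 differ in line and treatment, so that rate may not hold for them. Selenop read 4.53 on the KPR5 ethanol array, Ttr 3.41, and Abca3 7.57, on the KPR5 tamoxifen array. Ccne1 read 5.24 and Cav1 10.87 on the KPR8 tamoxifen array, and Trp63 read 4.89 on the KPR8 ethanol array. These gaps are small beside the difference of Selenop and Ttr from KPR4.

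For 3 named genes the step from ethanol to tamoxifen in KPR4 was unlike that in the other lines in a limma fit with line terms, chosen after seeing the data, that has 1 residual degree of freedom. The planned fit called 0 genes (lowest adjusted p = 1.0), so these are values and not a tested difference. For Fabp1 the difference of responses was -2.84 ± 0.37, with KPR4 above the others by 4.07 on the ethanol arrays and 1.24 on the tamoxifen arrays. For Ttr it was -2.37 ± 0.39 (5.62 and 3.26), and for Ephx1 -2.23 ± 0.42 (4.26 and 2.02). The KPR4 response in each is the difference of 1 array per treatment.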

How the results depend on the processing

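No paired analysis was possible because no replicate numbers pair arrays across lines; the fit with 3 line terms does pair the ethanol and tamoxifen arrays of a line (2 residual degrees of freedom). Against 400 higher and 278 lower genes, 3 line terms gave 1245 and 1284, KPR5 alone as comparison 1046 and 1224, and KPR8 alone 1364 and 1250. A random line block gave 218 and 114, no treatment term 257 and 134, the ethanol arrays alone 93 and 18, and the tamoxifen arrays alone 93 and 17. Leaving out 1 array gave 57 to 534 higher and 6 to 345 lower. The other filters, probe set rule, variance setting and scalings stayed within 1.5 times. Of 101 called named genes 0 changed sign in any setting, 27 kept their call without the KPR4 ethanol array and 32 without its tamoxifen array. Several list medians depended on the filter. With no filter and values under background set to it, that of the mucosal genes became 0.39 and that of the lineage factors 0.12. The plasma proteins then had a median of 0.09, the aldehyde and xenobiotic enzymes 1.04 and the alveolar genes -0.02. In the same way the median of the airway list became 0.00 and that of neuroendocrine markers 0.0158. The cause of these changes was not tested. Dim genes are limited by the background of 2.84.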

Other observations

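Further genes, picked after their values were seen, are given as single genes and stand for no pathway. Pls1, encoding the microvillus bundling protein plastin 1, read 10.08 and 10.17 in KPR4, 6.86 and 7.02 in KPR5 and 6.79 and 7.40 in KPR8. KPR4 lay above all 4 others, at 3.11 ± 0.20 (limma, adjusted p = 0.00021). Myo6, an unconventional myosin, differed by 3.59 ± 0.33 and Eps8l3, a brush border protein, by 2.30 ± 0.15, while the brush border gene Vil1 differed by 0.39 ± 0.22 (limma, adjusted p = 0.31). Il1r1, the interleukin-1 receptor, read 9.31 and 8.90 in KPR4, 5.71 and 5.36 in KPR5 and 5.64 and 5.30 in KPR8, a difference of 3.60 ± 0.18 (limma, adjusted p = 6.9e-05). Its antagonist Il1rn was also higher. Lbp, which carries lipopolysaccharide to CD14, differed by 3.13 ± 0.21. The peroxisomal thiolase Acaa1b differed by 3.87 ± 0.19 and Ech1, a dienoyl-CoA isomerase, by 3.01 ± 0.33.

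Among lower genes picked in the same way, Tmem40 differed by -1.96 ± 0.24, the keratin Krt80 by -1.69 ± 0.24, the kallikrein Klk8 by -1.85 ± 0.16, the stratifin gene Sfn by -1.24 ± 0.22 and the factor Tfap2a by -1.59 ± 0.24. Sprr2h, a gene of squamous epithelia, was at 5.94 and 8.11 in KPR4, 2.77 and 2.94 in KPR5 and 3.16 and 3.69 in KPR8, higher in KPR4 on both arrays. It passed the filter through KPR4 alone. The Wnt ligands Wnt7a and Wnt7b differed by -1.74 ± 0.20 and -1.40 ± 0.20.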
